A study of Mus musculus with 8 samples.

Results

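Mitochondrial ribosomal protein genes were taken as the genes whose mouse symbol is Mrpl or Mrps followed by a number and at most the letter a, b or c. This gave 77 genes of the 37310 listed in every count table, 48 with a large subunit symbol (Mrpl) and 29 with a small subunit symbol (Mrps). Of the 78 symbols that meet the rule, Mrpl33 is not analysed here. The counts came from poly-A RNA sequencing of mouse embryonic stem cells in a study of RNA helicases that centred on eIF4A3, a helicase of the exon junction complex. J1 cells, a line of the 129S4/SvJae strain, gave 3 groups of 2 libraries each. The control group carried a control knockdown and a control expression construct, the second group is labelled eIF4A3 knockdown with control expression ("labelled knockdown" below), and the third is labelled eIF4A3 knockdown with overexpression of Ccnb1, the gene of cyclin B1 ("labelled Ccnb1"). A second line, CCE (129/Sv strain), is present only as 2 libraries with the label eIF4A3 knockdown, and no CCE control was used here. All groups were feeder-free cells on gelatin with serum and LIF that were transfected with Lipofectamine and then infected with lentivirus. They were kept in 1 µg/mL puromycin over 2.5 days and harvested at day 4.5 of infection. Each line is a single established line, so the groups describe J1 and CCE cells and not embryos.

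The mitochondrial ribosome is a separate ribosome inside the mitochondrion that translates the few messenger RNAs of the mitochondrial genome, which code for core subunits of the respiratory chain and ATP synthase. Its ribosomal RNAs come from the mitochondrial genome, whereas all of its proteins are encoded in the nucleus, translated in the cytosol and imported. The small subunit holds the messenger RNA and the decoding centre. The large subunit forms peptide bonds and sits at the inner membrane. Many of the proteins descend from bacterial ribosomal proteins and the others were added during the evolution of mitochondria.

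Total gene counts were 3596615 to 8340023 per J1 library, fewest in the libraries labelled knockdown, and 23965806 and 25573379 in CCE. Levels are given in CPM, the usual unit in which each count is scaled to a fixed total of gene counts per library. A count of 0 allows up to 3 counts, which is 0.360 to 0.834 CPM in J1 and 0.117 and 0.125 CPM in CCE, for counting error only. Neither target gene separated all groups as labelled. Eif4a3 stood at 73.5 and 83.7 CPM in control cells, 75.7 and 37.5 CPM in labelled knockdown cells and 47.3 and 53.5 CPM in labelled Ccnb1, and Ccnb1 at 135 and 129, 101 and 126, and 136 and 131 CPM in the same order. Neither gene passed the test in any J1 comparison (adjusted p of 0.0968 to 0.859, edgeR's quasi-likelihood test), and copies of these genes were not examined here. The variance between replicate libraries was 3.41 times that of Poisson noise in control, 1.88 times in labelled Ccnb1 and 22.0 times in labelled knockdown. These are means over genes in a middle range of counts. Reads listed as unaligned made up 40.8% and 45.2% of the labelled knockdown libraries and at most 15.9% of any other J1 library. The embryonic stem cell markers, 10 genes such as Pou5f1 and Nanog, were detected in every library, and their summed level was 8654 to 8675 CPM in control cells, 3836 to 4196 CPM in labelled knockdown cells and 8318 to 8346 CPM in labelled Ccnb1. All 10 markers fell in labelled knockdown against control, where 17.9% of all genes tested did (edgeR, adjusted p under 0.05). In labelled Ccnb1 against control 4 of them rose (Esrrb, Klf4, Nanog and Zfp42), where 9.35% of all genes did. Pou5f1 and Utf1 fell, where 10.5% of all genes did.

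The 77 genes together took a smaller share of the RNA in labelled Ccnb1 than in the other J1 groups. Large subunit genes summed to 3678 and 3766 CPM in the control libraries, 3655 and 3770 CPM in labelled knockdown cells and 2243 and 2196 CPM in labelled Ccnb1. Small subunit genes summed to 1823 and 1856 CPM in control cells, 1793 and 1733 CPM in labelled knockdown cells and 1226 and 1190 CPM in labelled Ccnb1. For both subunits the labelled Ccnb1 libraries lay below every other J1 library, and the large subunit sums of control and labelled knockdown overlapped. Over both subunits the group means were 5561 ± 85.3 CPM in control cells, 5476 ± 38.4 CPM in labelled knockdown cells and 3428 ± 58.1 CPM in labelled Ccnb1 (SD, n = 2 each). Relative to control, the mean of labelled Ccnb1 differed by -38.4% over all members, -40.4% for the large and -34.3% for the small subunit genes, and that of labelled knockdown by -1.54% over all members. These sums were not tested. An exact two-sided permutation test of 2 libraries against 2 cannot go below p = 0.333. In bulk RNA, fewer cells with these transcripts and less of the RNA per cell cannot be told apart.

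**Figure D1:**
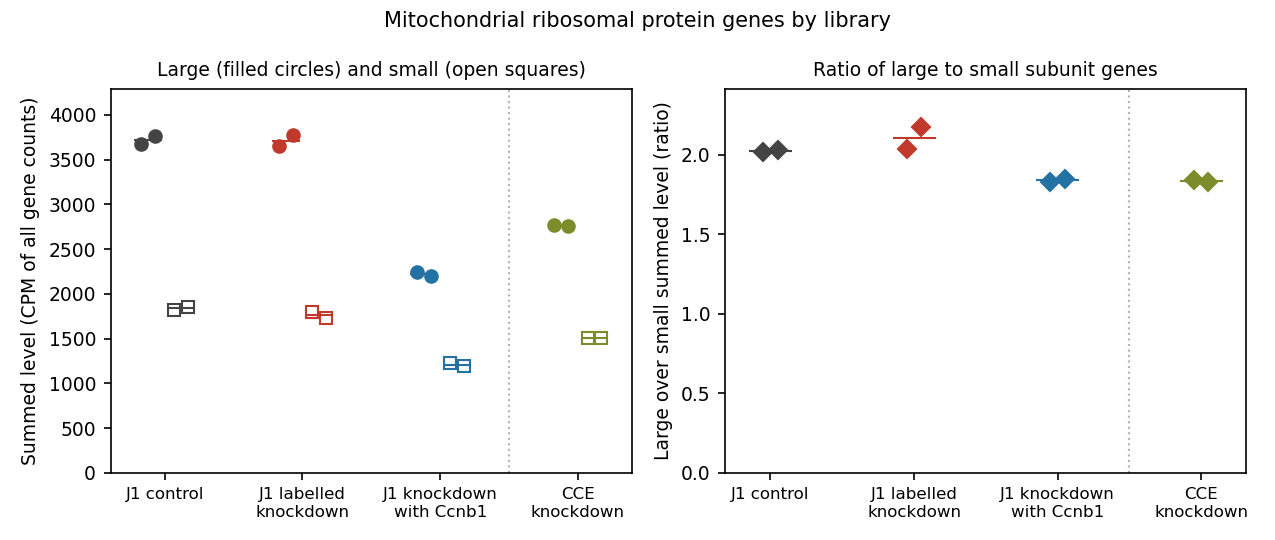
Summed level in CPM of the 48 large subunit genes (filled circles) and 29 small subunit genes (open squares) in each library (left) and the ratio of the sums (right), with a line at each group mean; the dotted line sets apart the CCE line, whose counts were made differently. The labelled Ccnb1 libraries are the lowest in both subunits, at 2243 and 2196 CPM for the large and 1226 and 1190 CPM for the small subunit genes.

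The large subunit lost slightly more than the small subunit in these sums. The ratio of large to small subunit sums was 2.02 ± 0.008 in control cells, 2.11 ± 0.097 in labelled knockdown cells and 1.84 ± 0.011 in labelled Ccnb1 (SD, n = 2 each). The labelled Ccnb1 libraries, at 1.83 and 1.85, lay below all other J1 libraries, and labelled knockdown ranged from 2.04 to 2.18. The sums weigh highly expressed genes most. With the median of log2 CPM over the members of each subunit in place of the sum, the difference between labelled Ccnb1 and control changed from -0.14 to 0.16 on the log2 scale and that between labelled Ccnb1 and labelled knockdown from -0.20 to 0.02, so the direction of the subunit difference depends on how the genes are weighed.

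Fold changes of single genes were tested over 14462 genes, of which 74 were members. Mrpl53 had no count in any of the 8 libraries. Mrps33 and Mrps36 did not pass the filter on low counts in J1, with at most 1.87 and 0.959 CPM in any J1 library, and stood at 8.68 and 8.60 CPM and at 11.7 and 14.1 CPM in CCE. Mrps36 was named as a ribosomal protein but is known as a component of the 2-oxoglutarate dehydrogenase complex. Fold changes are log2 values after TMM scaling, with an approximate standard error (SE) that rests on the spread over all J1 groups. Whether replicate libraries came from separate cultures is not given in the labels, so p-values measure only the spread between these libraries, which may be technical.

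Labelled Ccnb1 against control moved the members in 1 direction where they passed edgeR's test. Of the 74 members tested, 35 fell, against a background of 10.5% of all genes tested, and 0 rose, against a background of 9.35% (edgeR, adjusted p under 0.05). At an unadjusted p under 0.05 (edgeR), 1 member was higher, where 2426 of all 14462 genes were. DESeq2 called 1 and limma voom 2 members higher, where 16.3% and 31.7% of all genes were. The median log2 fold change was -0.82 over the members and 0.07 over all genes. Both labelled Ccnb1 libraries lay below both control libraries for 62 members, where 33.7% of all genes did so, and above them for 6 members, where 45.3% did. By subunit, 22 of 47 tested large subunit genes and 13 of 27 tested small subunit genes fell, with medians of -0.82 and -0.83. Among genes whose protein has a bacterial homologue, 14 of 28 large and 7 of 16 small subunit genes fell, and among those without one, 8 of 19 and 5 of 9.

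Among the large subunit genes, Mrpl30 (ENSMUSG00000026087.5, on chromosome 1), a homologue of a bacterial large subunit protein, had the lowest fold change. It stood at 55.9 and 51.9 CPM in control cells and 11.8 and 12.2 CPM in labelled Ccnb1, which was -2.24 (SE 0.21, adjusted p = 0.00236, edgeR). Its groups did not overlap, and its control libraries were more than 4 times those of labelled Ccnb1. Mrpl12 (ENSMUSG00000039640.7, on chromosome 11), the protein of the stalk that contacts translation factors and also a partner of the mitochondrial RNA polymerase, was among the most abundant members and fell from 242 and 244 CPM to 75.1 and 71.6 CPM, a change of -1.80 (SE 0.12, adjusted p = 0.000972, edgeR). Mrpl10, which anchors the stalk, stood at 169 and 158 CPM in control cells and 114 and 109 CPM in labelled Ccnb1 (-0.63, SE 0.15, adjusted p = 0.0349, edgeR). Both stalk genes were thus lower in both labelled Ccnb1 libraries than in either control library. A pseudogene copy of Mrpl12 also held counts, which are given below.

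Mrpl54, a protein specific to mitochondria, had 83.8 and 76.4 CPM in control cells and 22.7 and 25.7 CPM in labelled Ccnb1 (-1.80, SE 0.27, adjusted p = 0.00919, edgeR). Mrpl58, a peptidyl-tRNA hydrolase built into the large subunit that can rescue stalled ribosomes, had 52.4 and 59.7 CPM against 16.9 and 23.1 CPM (-1.56, SE 0.24, adjusted p = 0.0104, edgeR). Mrpl34, a small basic protein with a bacterial homologue, had 174 and 182 CPM against 66.6 and 65.3 CPM (-1.51, SE 0.15, adjusted p = 0.00275, edgeR). In each of the 3 genes the labelled Ccnb1 libraries lay far below control. Mrpl52, another protein without a bacterial homologue, had low counts, with 14.8 and 19.8 CPM against 5.62 and 7.25 CPM (-1.50, SE 0.34, adjusted p = 0.0334, edgeR).

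The small subunit genes that fell included parts of its core. Mrps12 (ENSMUSG00000045948.8, on chromosome 7), which lies at the decoding centre, stood at 112 and 122 CPM in control cells and 49.0 and 49.7 CPM in labelled Ccnb1 (-1.32, SE 0.28, adjusted p = 0.0268, edgeR). Mrps24, a homologue of a bacterial protein at the entry of the messenger RNA channel, stood at 83.6 and 95.8 CPM against 29.8 and 34.6 CPM (-1.55, SE 0.16, adjusted p = 0.0029, edgeR). Mrps25 stood at 55.0 and 52.2 CPM against 18.2 and 21.4 CPM (-1.51, SE 0.23, adjusted p = 0.00934, edgeR). The libraries of the groups did not overlap in any of these genes, and the same held for Mrps34 at 150 and 151 CPM against 73.2 and 61.8 CPM (-1.23, SE 0.12, adjusted p = 0.00274, edgeR) and for Mrps14 at 68.5 and 72.7 CPM against 31.7 and 27.8 CPM (-1.32, SE 0.20, adjusted p = 0.00956, edgeR). The genes that fell in this comparison and whose fold change is not given above had values between -1.31 (Mrpl35) and -0.67 (Mrpl15).

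Not every member was low. Mrps2, a homologue of a bacterial small subunit protein, had 151 and 142 CPM in control cells and 210 and 207 CPM in labelled Ccnb1, without overlap, and its fold change of 0.44 did not pass the test (SE 0.12, adjusted p = 0.0528, edgeR). Mrpl1, the protein of the mobile arm near the exit site of transfer RNA, had 39.4 and 38.0 CPM against 47.2 and 47.3 CPM (0.21, SE 0.21, adjusted p = 0.546, edgeR). Mrpl50 had 88.3 and 101 CPM against 101 and 93.0 CPM (-0.04, SE 0.26, adjusted p = 0.94, edgeR), and its groups overlapped. The 3 Mrps18 genes are relatives of the same bacterial protein, and differences among them were not tested. Mrps18a, a large subunit protein in structures despite its symbol, fell from 50.2 and 61.5 CPM to 32.4 and 26.9 CPM (-0.99, SE 0.26, adjusted p = 0.0494, edgeR), whereas Mrps18b, with 12.4 and 16.5 CPM against 16.2 and 13.7 CPM, and Mrps18c, with 2.44 and 5.40 CPM against 3.92 and 3.47 CPM, overlapped between the groups. Pseudogene copies held 71.9% and 64.1% of the counts of Mrps18b and its copy in control. For Mrps18c they held 87.9% and 71.2%, so the levels of both genes are uncertain. Mrps30, also a large subunit protein in structures, had 117 and 97.1 CPM in control cells and 94.7 and 98.2 CPM in labelled Ccnb1 (-0.22, SE 0.21, adjusted p = 0.529, edgeR).

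**Figure D2:**
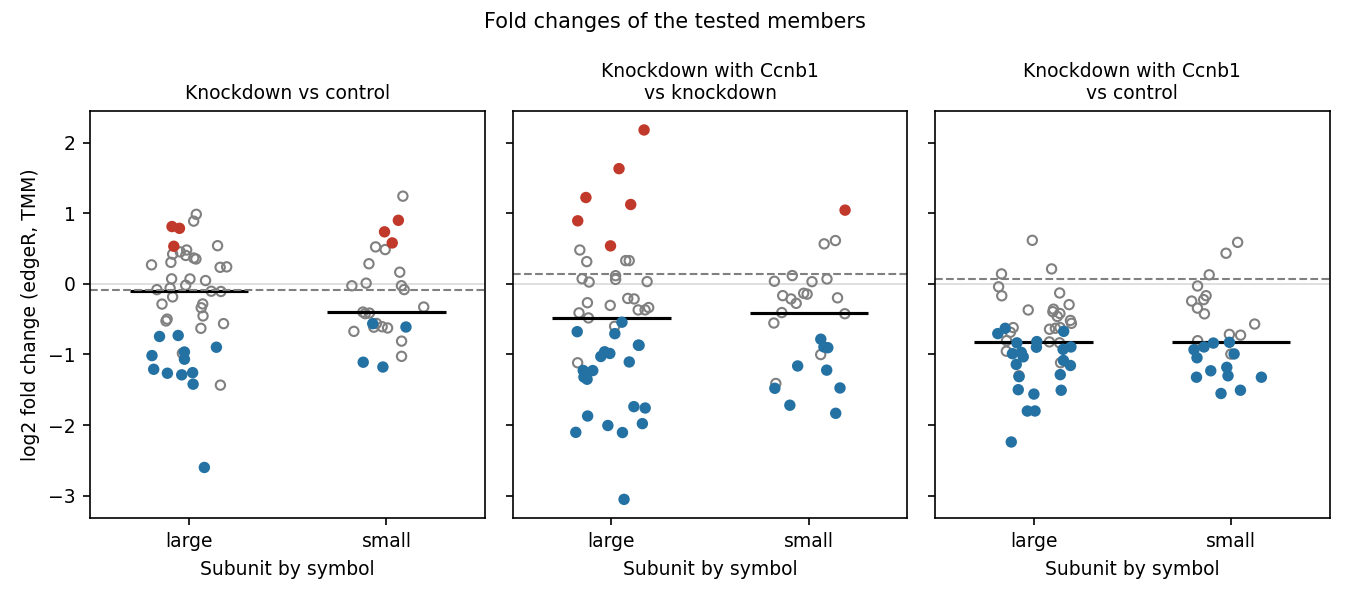
Log2 fold changes of the 74 tested members by subunit in the 3 J1 comparisons; filled red points rose and filled blue points fell at an adjusted p under 0.05 (edgeR), open points did not pass, black lines are subunit medians and dashed lines the median of all 14462 genes. In labelled Ccnb1 against control no red point is present, and both subunit medians (-0.82 and -0.83) lie below the median of all genes (0.07).

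The number of calls changed with the libraries in the fit, over all genes as well as over the members, and the median stayed negative in each of the fits that follow. Without labelled knockdown library 1 or 2, 60 members fell, where 25.3% or 25.0% of all genes did, and with only the 2 groups compared 63 fell, where 30.7% of all genes did. Without control library 1 or control library 2 the count of members that fell was 1, without labelled Ccnb1 library 1 it was 2 and without labelled Ccnb1 library 2 it was 1, where 1.10%, 0.982%, 1.30% and 1.22% of all genes fell, so that the calls on members were then near the background. The median lay between -0.83 and -0.74 in the fits that left out a library. With an offset for GC content and length in each library, 21 members fell, where 7.46% of all genes did, and the median was -0.54.

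The promoters of the members were searched on both strands for motifs that are common in genes of mitochondrial and general cell function. In RefSeq entries for GRCm38.p6, 74 promoters of 68 members were found (250 bases before to 50 after the start). The motif CCGGAAG, the core bound by ETS family factors, was in 33.8% of them and in 8.86% of all 32851 promoters. The motif AAGATGGC, bound by YY1, was in 16.2% and 2.75%, and the NRF1 motif, GCGCA followed by its reverse complement, in 4.05% and 0.971%. The E-box CACGTG was in 9.46% and 7.15%. None of these motifs contains another, but the last 3 letters of the ETS motif are the first 3 of the YY1 motif, so that their matches can overlap. Of the 28 members with an entry that fell in labelled Ccnb1 against control, 11 held the ETS motif, 9 the YY1 motif and 0 the NRF1 motif, and of the other 37 tested members with an entry, 12, 3 and 3 did. A match is a description of the letters and not a binding site.

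The following stretches lie upstream of the start of members that fell in labelled Ccnb1 against control and hold the ETS motif, which is shown in capitals (CTTCCGG is the motif on the other strand). They are written 5′ to 3′ in the direction of the gene and come from RefSeq, GRCm38.p6: Mrpl58 at chr11:115403700-115403751 (plus strand), Mrpl34 at chr8:71464854-71464925 (plus), Mrpl52 at chr14:54426827-54426903 (plus), Mrps18a at chr17:46110943-46111003 (plus), Mrps26 at chr2:130563708-130563756 (plus) and Mrpl17 at chr7:105811283-105811337 (minus).
Mrpl58: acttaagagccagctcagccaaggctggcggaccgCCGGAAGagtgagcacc
Mrpl34: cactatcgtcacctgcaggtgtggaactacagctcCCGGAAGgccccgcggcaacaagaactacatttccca
Mrpl52: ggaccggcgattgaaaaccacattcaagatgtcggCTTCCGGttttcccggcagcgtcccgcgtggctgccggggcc
Mrps18a: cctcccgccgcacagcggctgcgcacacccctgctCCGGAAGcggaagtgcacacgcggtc
Mrps26: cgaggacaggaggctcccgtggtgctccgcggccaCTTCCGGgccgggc
Mrpl17: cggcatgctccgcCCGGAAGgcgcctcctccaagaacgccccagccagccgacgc

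Labelled knockdown against control moved single members in both directions. Of the 74 members, 16 fell, where 17.9% of all genes did, and 6 rose, where 11.0% did (edgeR, adjusted p under 0.05). The median was -0.23 over the members and -0.08 over all genes. Of the large subunit genes 12 fell and 3 rose, and of the small subunit genes 4 fell and 3 rose. Without TMM scaling the median of all genes moved to 0.06 and that of the members to -0.08, and 14.2% of all genes rose and 14.7% fell. The shares of members called, 21.6% lower and 8.11% higher, were near those of all genes, and single fold changes are relative to these medians.

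Mrpl32 (ENSMUSG00000015672.3, on chromosome 13), a large subunit protein that is matured by a mitochondrial protease before it is built in, fell most. It stood at 41.3 and 46.2 CPM in control cells, 4.77 and 11.4 CPM in labelled knockdown cells and 32.2 and 36.7 CPM in labelled Ccnb1. The labelled knockdown libraries were the lowest, and the change from control was -2.60 (SE 0.43, adjusted p = 0.0101, edgeR). Mrpl1 stood at 18.2 and 13.9 CPM in labelled knockdown, below the control libraries given above, a change of -1.42 (SE 0.22, adjusted p = 0.00837, edgeR). Mrpl51 fell from 38.3 and 43.5 CPM to 18.4 and 18.9 CPM (-1.29, SE 0.23, adjusted p = 0.0121, edgeR). In each of the 3 genes labelled Ccnb1 lay closer to control than labelled knockdown did.

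A further set was low in labelled knockdown and about as low in labelled Ccnb1. Mrpl17 stood at 134 and 142 CPM in control cells, 65.7 and 67.3 CPM in labelled knockdown cells and 75.8 and 80.8 CPM in labelled Ccnb1, and fell in labelled knockdown by 1.21 on the log2 scale (SE 0.11, adjusted p = 0.00192, edgeR). Mrpl18 stood at 164 and 153, 90.9 and 77.3, and 80.9 and 82.0 CPM in the same order (-1.07 in labelled knockdown, SE 0.12, adjusted p = 0.00316, edgeR). Mrpl36, a small protein of the large subunit with a bacterial homologue, stood at 96.8 and 111, 39.1 and 57.8, and 55.9 and 43.5 CPM (-1.26, SE 0.25, adjusted p = 0.0174, edgeR). For these genes control lay above both other groups, and the fold change between labelled Ccnb1 and labelled knockdown did not pass the test (0.32, 0.03 and 0.12, adjusted p = 0.0784, 0.857 and 0.752, edgeR). Mrps12 had 41.4 and 74.2 CPM and Mrps14 32.3 and 40.6 CPM in labelled knockdown, and both fell against control (-1.18 and -1.11, adjusted p = 0.0306 and 0.0132, edgeR).

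The 6 genes that rose in labelled knockdown came from both subunits. Mrpl45 (ENSMUSG00000018882.5, on chromosome 11), which anchors the ribosome to the inner membrane near the exit of the peptide tunnel, stood at 187 and 200 CPM in control cells, 336 and 409 CPM in labelled knockdown cells and 107 and 101 CPM in labelled Ccnb1. It rose by 0.79 in labelled knockdown (SE 0.12, adjusted p = 0.00805, edgeR) and was then the member with the highest CPM in both of those libraries. Mrpl30 reached 121 and 89.5 CPM (0.81, SE 0.19, adjusted p = 0.0294, edgeR). Mrpl38, a protein of the central protuberance, reached 196 and 163 CPM from 106 and 117 CPM (0.53, SE 0.13, adjusted p = 0.0307, edgeR). All 3 large subunit genes were above control in both labelled knockdown libraries. In the small subunit, Mrps6 had 31.9 and 29.5 CPM in control cells and 73.4 and 54.2 CPM in labelled knockdown (0.90, SE 0.22, adjusted p = 0.033, edgeR). Mrps9 had 68.1 and 62.9 against 137 and 106 CPM (0.74, SE 0.18, adjusted p = 0.0305, edgeR). Mrps26 had 74.2 and 81.8 against 143 and 117 CPM (0.58, SE 0.15, adjusted p = 0.0347, edgeR), so that in these genes too the groups did not overlap.

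**Figure D3:**
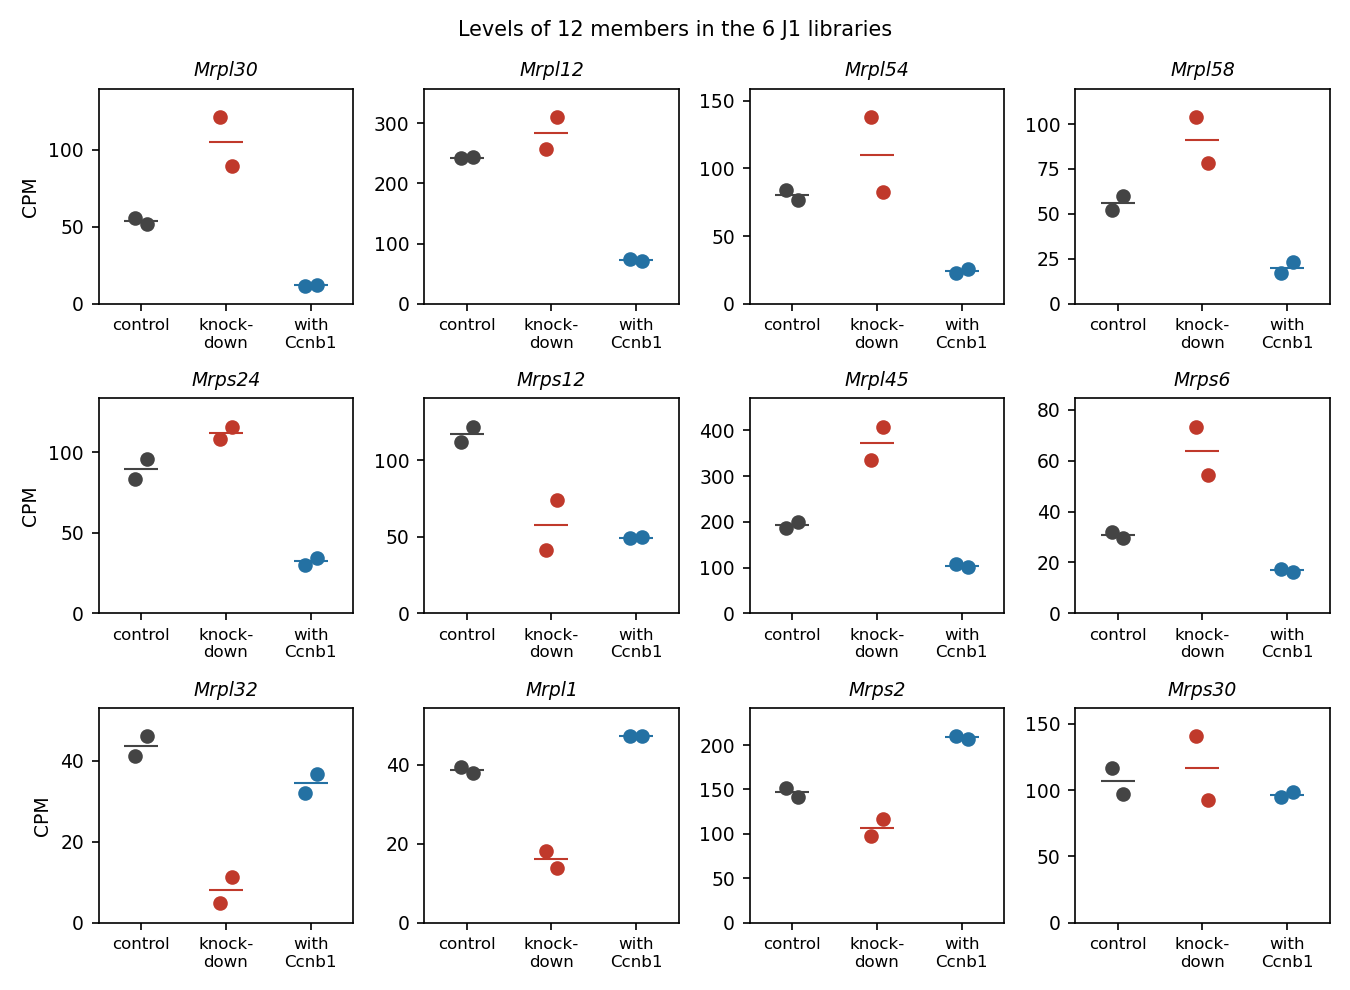
CPM of 12 members in the 6 J1 libraries, 2 points per group with a line at the group mean, each panel with its own axis from 0. Mrpl30, Mrpl45 and Mrps6 are highest in labelled knockdown and lowest in labelled Ccnb1, whereas Mrpl32 and Mrpl1 are lowest in labelled knockdown (4.77 and 11.4 CPM, and 18.2 and 13.9 CPM).

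The labelled knockdown libraries differed widely from each other, over all genes more than over the members. On log2(CPM + 1), the gap between the 2 libraries of a group had a median of 0.40 in labelled knockdown, 0.11 in control and 0.13 in labelled Ccnb1, and over all genes 0.53, 0.17 and 0.13. The gap was over 1 for 15 of the 74 members (20.3%) in labelled knockdown, where it was for 30.4% of all genes tested. In the other J1 groups it was over 1 for 0 members, where it was for 3.81% of all genes in control and 1.40% in labelled Ccnb1. Mrps21 showed the widest, with 17.5 and 0 CPM in labelled knockdown against 15.9 and 16.3 CPM in control. The fold change against control also moved with gene structure. Members were split in 3 by the share of their transcript's 100-base windows that lie within 1 exon, and the median change in labelled knockdown was 0.07 where that share was lowest (25 genes), -0.51 in the middle (24 genes) and -0.61 where it was highest (25 genes). Pearson's r over the 74 members was -0.39 and over 14017 genes -0.15, across genes that share the libraries. The part of this in the results was not tested. The number of calls changed with the libraries in the fit here too. Without control library 1, control library 2, labelled Ccnb1 library 1 and labelled Ccnb1 library 2 in turn, 1, 2, 6 and 6 members fell, where 3.22%, 2.98%, 6.65% and 6.63% of all genes did, and 0, 0, 1 and 1 rose, where 1.41%, 1.38%, 3.56% and 3.56% did. Without labelled knockdown library 1 or 2, 36 or 34 members fell, where 35.3% or 37.9% of all genes did, and 14 or 13 rose, where 27.6% or 27.9% did. With only the 2 groups compared, 7 fell and 1 rose, where 7.66% and 5.56% of all genes did.

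Labelled Ccnb1 against labelled knockdown asks what differs between the knockdown labels with and without the cyclin. Of the 74 members, 30 were lower, where 16.0% of all genes were, and 7 were higher, where 22.8% were (edgeR, adjusted p under 0.05). The median was -0.42 over the members and 0.14 over all genes. Large subunit genes gave 21 lower and 6 higher of 47, and small subunit genes 9 lower and 1 higher of 27. This comparison shares its libraries with the other comparisons, so a member that was high in labelled knockdown counts in both.

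Mrpl30 again had the lowest value, -3.05 (SE 0.21, adjusted p = 0.000453, edgeR), followed by Mrpl54 at -2.11 (SE 0.27, adjusted p = 0.00314, edgeR) with 138 and 82.3 CPM in labelled knockdown, and Mrpl58 at -2.10 (SE 0.24, adjusted p = 0.00228, edgeR) with 104 and 78.1 CPM. Mrpl48, without a bacterial homologue, had 49.3 and 18.6 CPM in labelled knockdown cells and 9.03 and 6.95 CPM in labelled Ccnb1 (-2.01, SE 0.53, adjusted p = 0.0311, edgeR), and the labelled knockdown libraries were far apart. Mrpl12 (-1.87), Mrps6 (-1.83), Mrpl45 (-1.76) and Mrps24 (-1.72) were also lower. None of these genes overlapped between the groups.

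The 7 genes that were higher in labelled Ccnb1 than in labelled knockdown were Mrpl32 (2.18, SE 0.43, adjusted p = 0.0125), Mrpl1 (1.63, SE 0.22, adjusted p = 0.0037), Mrpl50 (1.22, SE 0.27, adjusted p = 0.0179), Mrpl3 (1.13, SE 0.31, adjusted p = 0.0358), Mrps2 (1.05, SE 0.12, adjusted p = 0.00217), Mrpl51 (0.89, SE 0.22, adjusted p = 0.0269) and Mrpl44 (0.54, SE 0.15, adjusted p = 0.0353), all by edgeR. Mrpl3, a core protein beside the peptidyl transferase centre, stood at 26.1 and 32.5 CPM in control cells, 20.5 and 12.5 CPM in labelled knockdown cells and 34.6 and 33.7 CPM in labelled Ccnb1. Mrpl44, a relative of RNase III enzymes, stood at 70.4 and 72.7, 41.6 and 43.9, and 61.0 and 56.6 CPM. Mrps2 was the only gene of the 7 in the small subunit, and its labelled Ccnb1 libraries were above those of both other groups. Without control library 1 or 2, 18 members were lower, where 7.47% or 7.54% of all genes were, and 2 higher, where 10.9% were in both fits. Without labelled Ccnb1 library 1 or 2, 12 or 8 members were lower, where 4.12% or 4.15% of all genes were, and 2 higher, where 6.48% or 6.33% were. Without labelled knockdown library 1 or 2, 41 or 39 members were lower, where 28.3% or 29.0% of all genes were, and 16 or 14 higher, where 39.4% or 42.3% were. With only the 2 groups compared, 18 were lower and 2 higher, where 11.9% and 16.9% of all genes were.

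Levels between genes were compared per kilobase of the longest coding transcript in GENCODE M21. Transcripts of the 74 tested members were shorter than those of all genes tested, with a median of 1401 against 2953 bases, and had 5 against 8 exons. Among tested members in control, the large subunit ranged from Mrpl34 at 293 ± 9.38 CPM per kilobase, Mrpl12 at 184 ± 1.01 and Mrpl54 at 133 ± 8.67 down to Mrpl47 at 6.04 ± 1.44, Mrpl48 at 3.85 ± 0.77 and Mrpl23 at 3.27 ± 1.40 (SD, n = 2 each). The small subunit ranged from Mrps34 at 164 ± 1.12, Mrps12 at 133 ± 8.01 and Mrps24 at 90.2 ± 8.67 down to Mrps22 at 9.96 ± 0.086, Mrps25 at 8.83 ± 0.336 and Mrps18c at 4.78 ± 2.55 CPM per kilobase. Mrpl54 and Mrps12 did not differ beyond their spread, nor did Mrpl23, Mrpl48 and Mrps18c, whereas Mrpl34 lay above Mrpl12 by more than the spread. Below these were the members that were not tested, Mrps33 at 0.851 and Mrps36 at 0.808 CPM per kilobase and Mrpl53 with no count. Mrpl23, Mrpl47, Mrpl48 and Mrps18c have a pseudogene copy, and the lowest tested member without one was Mrpl3 at 7.38 CPM per kilobase.

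Several members at the low end share sequence with processed pseudogenes, which are intronless copies of messenger RNAs in the genome. At 90% identity over at least 200 bases, 23 such copies of 18 members were found in GENCODE M21 transcripts. They held 11.6% and 11.3% of the summed gene and copy counts of the 77 members in control, 7.33% and 8.40% in labelled knockdown cells and 12.9% and 13.5% in labelled Ccnb1, but 0.0195% and 0.022% in CCE. Mrpl23, which lines the exit of the peptide tunnel, was counted at 3.14 and 1.68 CPM in control, and its copy Mrpl23-ps1 at 79.1 and 74.0 CPM, so the copy held 96.2% and 97.8% of their joint counts there and 5.21% and 4.08% in CCE. The copy is identical to the gene over 507 bases. Mrps18b stood at 12.4 and 16.5 CPM beside 31.7 and 29.5 CPM in Gm13552, which matches it over 417 bases, and at 125 and 108 CPM in CCE. The copy Mrpl48-ps held 68.5% and 77.1% of the joint counts with Mrpl48 in control and Gm14017 held 77.1% and 73.3% of those with Mrpl51. In 12 of the 18 members the copies held over 20% of the joint counts in both control libraries, and the copies of Mrpl41 and Mrps33 had no count there. Among the 12 were Mrpl12 and Mrpl18. The copy of Mrpl12 held 28.5% and 31.2% of the joint counts in control and 39.6% and 41.0% in labelled Ccnb1. That of Mrpl18 held 27.4% and 24.5% in control. The levels of the 12 genes in J1 are uncertain, as reads of gene and copy cannot be told apart where the sequences are identical.

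The stretches below show how alike these pairs are. Each is 120 bases of coding sequence of the gene from GENCODE M21 with the matching bases of the copy, and capitals mark positions that differ. The stretch of Mrpl23 is the same in Mrpl23-ps1, that of Mrps18b differs from Gm13552 at 1 position, and that of Mrpl48 from Mrpl48-ps at 7 positions.
Mrpl23: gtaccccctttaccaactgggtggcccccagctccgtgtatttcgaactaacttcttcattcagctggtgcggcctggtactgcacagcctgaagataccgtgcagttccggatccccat
Mrpl23-ps1: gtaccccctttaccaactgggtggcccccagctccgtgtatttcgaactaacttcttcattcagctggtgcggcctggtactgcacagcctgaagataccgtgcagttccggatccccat
Mrps18b: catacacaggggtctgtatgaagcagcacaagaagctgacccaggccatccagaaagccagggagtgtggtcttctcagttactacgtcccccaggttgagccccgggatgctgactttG
Gm13552: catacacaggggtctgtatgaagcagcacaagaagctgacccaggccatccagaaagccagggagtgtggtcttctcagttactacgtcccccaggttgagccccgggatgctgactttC
Mrpl48: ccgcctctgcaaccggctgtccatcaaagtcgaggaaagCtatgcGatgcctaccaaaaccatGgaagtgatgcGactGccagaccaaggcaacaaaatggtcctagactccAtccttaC
Mrpl48-ps: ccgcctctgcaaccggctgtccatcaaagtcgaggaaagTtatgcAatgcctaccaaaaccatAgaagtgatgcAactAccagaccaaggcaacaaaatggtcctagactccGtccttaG

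**Figure D4:**
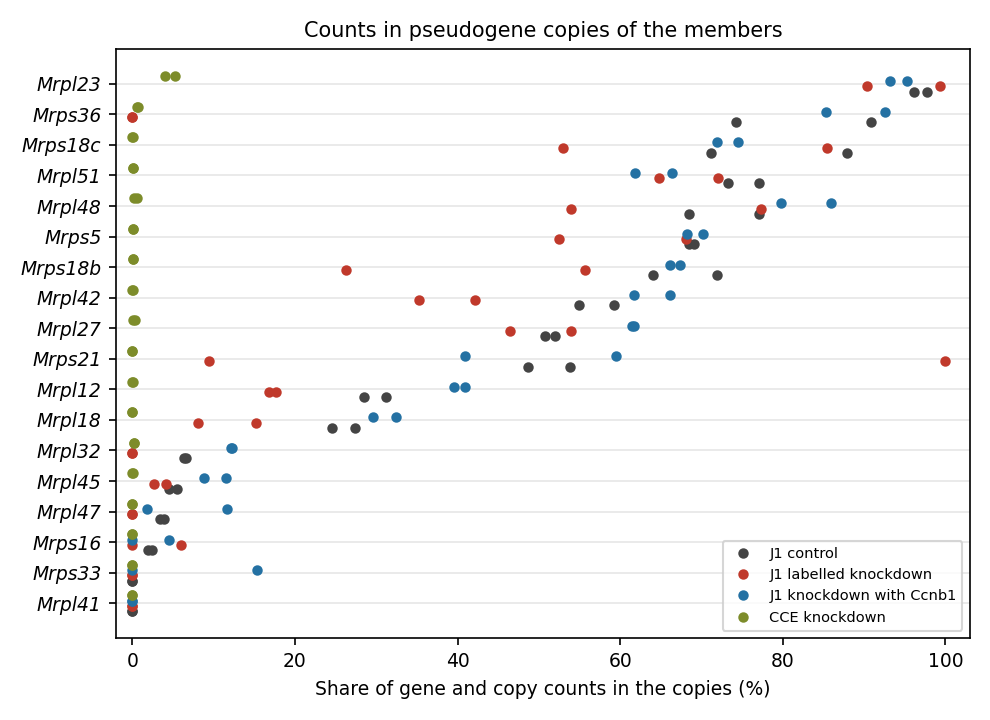
Share of the joint counts of a member and its pseudogene copies that lie in the copies, for 18 members (vertical axis) in each of the 8 libraries, coloured by group. In J1 the shares run from 0% to over 90%, as for Mrpl23 at 96.2% and 97.8% in control, whereas the CCE libraries sit near 0% for most members and at 5.21% and 4.08% for Mrpl23.

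Members with and without a copy were also counted apart. Of the 16 tested members with a copy, 5 (31.3%) fell in labelled Ccnb1 against control and 0 rose, and of the 58 without one, 30 (51.7%) fell and 0 rose, with medians of -0.64 and -0.82, where 10.5% of all genes fell and 9.35% rose. When the counts of every member were summed with those of its copies, an alternative added after seeing the data, 36 of 75 members fell and 0 rose in that comparison, with the same shares of all genes. In labelled knockdown against control 19 then fell and 6 rose, where 17.9% and 11.0% of all genes did, and in labelled Ccnb1 against labelled knockdown 31 were lower and 10 higher, where 16.1% and 22.8% were.

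In CCE cells labelled knockdown, the members summed to 4279 and 4256 CPM, of which the large subunit gave 2774 and 2753 CPM and the small subunit 1505 and 1504 CPM. The ratio of large to small was 1.84 ± 0.009 (SD, n = 2). The libraries lay within 0.07 to 0.10 of each other in the median gap on log2(CPM + 1) for the large and small subunit genes. The highest CPM in the large subunit belonged to Mrpl45, at 135 and 126 CPM, and in the small subunit to Mrps18b. CCE has no control here and its counts were made differently, so the line, the label and the processing cannot be told apart, and the values are given side by side with J1 control only as a description.

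Single members differed far between the lines. On log2((CPM + 1)/(CPM + 1)) of J1 control over CCE, Mrpl34 was at 2.54, with 29.3 and 30.1 CPM in CCE, Mrps12 at 2.09 with 26.7 and 26.9 CPM, and Mrpl36 at 2.06 with 23.0 and 25.4 CPM. At the other end were Mrps18b at -2.92 and Mrps18c at -2.72, both with a copy, and Mrpl39 at -2.04, with 23.5 and 26.9 CPM in J1 control and 107 and 106 CPM in CCE, for which no copy was found. The 3 genes at the top have 2 exons each. Over the 74 members the ratio fell with the number of exons, with Pearson's r of -0.43 and Spearman's rho of -0.45, and over 14072 genes with r of -0.21 and rho of -0.28, across genes that share the libraries. Split by the share of 100-base windows within 1 exon, the median ratio was -0.30 in the lowest group of members, 0.37 in the middle and 0.46 in the highest. The part of exon structure in these values was not tested.

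**Figure D5:**
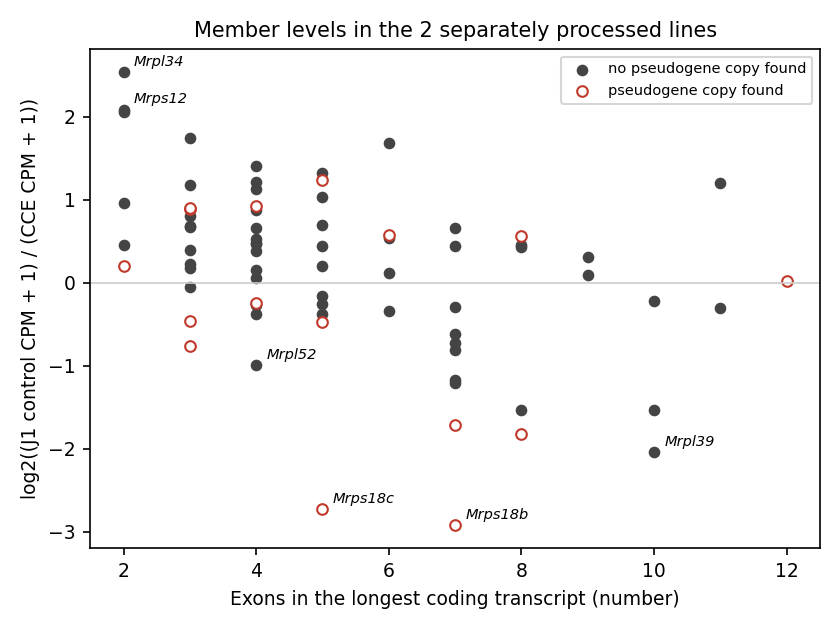
Log2 ratio of J1 control over CCE knockdown levels (mean CPM + 1) against the number of exons for the 74 tested members; open red points have a pseudogene copy. Mrpl34 and Mrps12, with 2 exons, are the highest at 2.54 and 2.09, and Mrps18b and Mrps18c, with 7 and 5 exons and a copy, the lowest at -2.92 and -2.72.

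The other genes of mitochondrial translation were read from lists of known roles. Their counts stand beside the shares of all genes tested, which were 10.5% lower and 9.35% higher in labelled Ccnb1 against control, 17.9% and 11.0% in labelled knockdown against control, and 16.0% and 22.8% in labelled Ccnb1 against labelled knockdown. Of 5 mitochondrial ribosomal proteins with other symbols, 5 fell in labelled Ccnb1 against control, with a median of -1.12. Dap3, a GTP-binding protein of the small subunit, had 80.3 and 88.6 CPM in control cells and 50.4 and 43.7 CPM in labelled Ccnb1 (-0.92, SE 0.14, adjusted p = 0.0106, edgeR). Ptcd3, an RNA-binding repeat protein of the small subunit, had 70.4 and 63.1 against 28.8 and 34.3 CPM (-1.15, SE 0.17, adjusted p = 0.00814, edgeR). The groups did not overlap in either gene, and Aurkaip1 (-1.12), Chchd1 (-1.20) and Gadd45gip1 (-0.44) fell as well. Of the 5, 1 (20%) fell in labelled knockdown (Gadd45gip1, -0.69) and 2 (40%) were lower in labelled Ccnb1 than in labelled knockdown (Dap3 and Ptcd3).

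Of 27 genes of mitochondrial ribosome assembly and ribosomal RNA maturation, 4 (14.8%) fell in labelled Ccnb1 against control, near the 10.5% of all genes, and 0 rose. They were Rbfa, a small subunit maturation factor, from 192 and 198 CPM to 73.2 and 64.9 CPM (-1.57, SE 0.12, adjusted p = 0.00124, edgeR), Mterf4, Mtg2 and Rcc1l. In labelled knockdown 3 (11.1%) rose, where 11.0% of all genes did, and 2 (7.41%) fell, where 17.9% did. Between labelled Ccnb1 and labelled knockdown 10 (37.0%) were lower, where 16.0% of all genes were, and 1 (3.70%) was higher, where 22.8% were. Of 13 translation factors, 1 (7.69%) fell in labelled Ccnb1 against control, where 10.5% of all genes did, Tsfm, the exchange factor of the mitochondrial elongation factor Tu (-0.77, adjusted p = 0.0214, edgeR). In labelled knockdown against control 2 of the 13 (15.4%) fell, Gfm1 and Tsfm, where 17.9% of all genes did. Mtif2 (7.69%) rose, where 11.0% did. Gfm1, a mitochondrial elongation factor G, stood at 46.5 and 43.3 CPM in control cells, 17.5 and 21.1 CPM in labelled knockdown cells and 51.4 and 53.2 CPM in labelled Ccnb1, and fell in labelled knockdown (-1.37, SE 0.20, adjusted p = 0.00691, edgeR). Of 13 genes of mitochondrial transcription and messenger RNA, 1 (7.69%) likewise fell in labelled Ccnb1 against control, Tbrg4 (-0.93, adjusted p = 0.00178, edgeR). In labelled knockdown against control 3 of these 13 (23.1%) rose, Fastkd1, Supv3l1 and Tfb2m, where 11.0% of all genes did. Only Tfam (7.69%) fell, where 17.9% did. Tfam, which packages and transcribes mitochondrial DNA, had 98.4 and 102 CPM in control cells, 58.4 and 29.8 CPM in labelled knockdown cells and 135 and 127 CPM in labelled Ccnb1 (-1.33 in labelled knockdown, SE 0.29, adjusted p = 0.024, edgeR).

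The cytosolic ribosomal protein genes were read the same way. Of 84 tested, 46 (54.8%) fell and 0 rose in labelled Ccnb1 against control, where 10.5% of all genes fell and 9.35% rose (edgeR, adjusted p under 0.05). At an unadjusted p under 0.05 (edgeR), 0 were higher, where 2426 of all 14462 genes were. The median was -0.90, beside 35 of 74 and -0.82 for the mitochondrial set. In labelled knockdown against control 12 fell and 12 rose (14.3% each), near the 17.9% and 11.0% of all genes, with a median of 0.00. In labelled Ccnb1 against labelled knockdown 47 (56.0%) were lower, where 16.0% of all genes were, and 3 (3.57%) higher, where 22.8% were, with a median of -0.86. The cytosolic set was taken by symbol and includes genes with related names, such as Rpl7l1, Rpl10l, Rpl39l and Rps4l. Pseudogene copies of the cytosolic genes were not searched for. The difference between the mitochondrial and the cytosolic set was not tested.

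GC content moved with the fold changes. Over the 74 members, Pearson's r between GC content and the change in labelled Ccnb1 against control was -0.34 and Spearman's rho -0.36, and over 14072 genes -0.27 and -0.33, across genes that share the libraries. The median GC content of the members was 50.5%, as was that of all genes tested. Markers of other cell types were summed as well. Primitive endoderm markers (7 genes) gave 11.8 to 14.3 CPM in control cells, 33.9 to 40.0 CPM in labelled knockdown cells and 97.6 to 100.5 CPM in labelled Ccnb1, with Foxa2 and Sox7 at 0 in both labelled knockdown libraries. Trophectoderm markers (6 genes) gave 29.8 to 33.6, 36.8 to 61.2 and 51.4 to 56.0 CPM, with Elf5 at 0 in control and labelled knockdown. Fibroblast and feeder markers (9 genes) gave 605 to 665, 776 to 837 and 745 to 778 CPM, most of it Fn1, with Col3a1, Postn and Dcn at 0 in all 6 J1 libraries. Of these lists 7, 4 and 3 genes were tested. In labelled knockdown against control Dab2, Krt18 and Col1a1 rose and Sox7 fell (edgeR, adjusted p under 0.05), where 11.0% and 17.9% of all genes did. In labelled Ccnb1 against control Dab2 and Krt18 rose and 0 fell, where 9.35% and 10.5% did. Against labelled knockdown, labelled Ccnb1 had Foxa2 and Sox7 higher and Cdx2 and Col1a1 lower, where 22.8% and 16.0% of all genes were. The part of GC content and of these cells in the members' values was not tested.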

How the data were processed

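For each of 8 libraries the authors deposited raw counts of reads per gene, by Ensembl ID, followed by summary lines for reads that entered no gene. Tools listed in the submitters' processing notes are edgeR 3.26.8, HTSeq 0.11.2, SAMtools 1.9 and Bowtie2 2.3.4.3, with the build mm9 and no roles or settings, and strand handling is not given in the sources used here. The summary lines held 58.6% to 80.0% of the reads and did not enter library sizes or tests. Reads listed as unaligned or of low quality were 0% in CCE and not in J1, and reads listed as not unique were 0% in J1 and not in CCE, so the 2 lines were processed differently.

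CPM were computed over all gene counts without TMM. Symbols came from a table that matched 32620 gene IDs. Tests used R 4.3.3 with edgeR 4.0.16 (quasi-likelihood F test, TMM, filterByExpr, 1 fit over the 6 J1 libraries, two-sided, Benjamini-Hochberg over 14462 genes, called at 0.05), with DESeq2 1.42.0 and limma 3.58.1 as alternatives, after a test on simulated data. The SE was obtained by dividing the size of the fold change (log2) by the square root of F. Transcript length, exons and GC content came from GENCODE M21, another build than mm9, and 97.3% of tested genes had them. Copies were searched with BLAST 2.17.0 and promoters taken from RefSeq. The numbers of the replicates do not mark a shared batch in the labels, and no block was used. Named members were those with up to 8 highest and 8 lowest fold changes called in each comparison with a mean of at least 5 CPM, the 3 highest and 3 lowest levels per length, those not tested and those with a set role. The members and lists were chosen with earlier results of these data known, and Mrpl10, Mrpl15, Mrpl18, Mrpl35, Mrpl39 and Mrps21 were named after their values were seen.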

Additional observations from a re-analysis of the deposited data

Results flagged for a closer look

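Reads listed as unaligned, which enter no comparison, made up a mean of 42.99% of the labelled knockdown libraries, a signal outside the gene counts.

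Counts in some pseudogene copies of the members were higher in a labelled group than in control, each with a mean over n = 2 libraries and outside the tested members. In labelled knockdown, Mrpl23-ps1 stood at 107 CPM against 76.53 CPM in control, Mrpl48-ps at 60.57 against 44.27 CPM, Gm6304, a copy of Mrpl27, at 42.93 against 31.22 CPM, Gm15946, a copy of Mrps18c, at 23 against 15.54 CPM, and Gm13744, a copy of Mrpl45, at 12.72 against 10.16 CPM. In labelled Ccnb1, Gm6304 stood at 32.64 against 31.22 CPM in control, Gm6578, a copy of Mrpl32, at 4.782 against 3.012 CPM, and Mrps36-ps1 at 4.073 against 2.25 CPM. Other copies went the other way. Of the 23 copies, 5 lay above control in both labelled knockdown libraries, where 30.9% of all genes tested did. Below control lay 10, where 31.4% of all genes tested did, and 7 had no count in either group. Among those below, Gm14017, a copy of Mrpl51, stood at 129 and 119 CPM in control cells against 47.5 and 34.8 CPM in labelled knockdown, and Gm13675, a copy of Mrpl18, at 61.8 and 49.6 CPM against 7.96 and 13.9 CPM. Gm13328, a copy of Mrps5, stood at 130.1 and 126 CPM against 52.1 and 55.1 CPM, and Gm15770, a copy of Mrpl12, at 96.5 and 110.3 CPM against 55.3 and 62.6 CPM. In labelled Ccnb1, 4 of the 23 copies lay above control in both libraries, where 45.3% of all genes tested did. Below control lay 8, where 33.7% did, and 5 had no count in either group. No test was made of the copies.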

How the results depend on the processing

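With 2 libraries a group, and 3596615 to 8340023 gene counts in J1, the number of calls changed with the libraries and the tool in the fit. The direction of every median below was kept under every alternative. Of 58 calls on named members, 31 were kept under every alternative other than leaving out a library, and the direction of 1 changed: Mrpl34 in labelled Ccnb1 against labelled knockdown reached 0.0315 once GC content and length entered as an offset. Most of the 58 were lost without a control or a labelled Ccnb1 library, and all were kept without a labelled knockdown library. The other results kept their direction and stayed within 1.5 times the count given in the report. The cause of the changes below was not tested.

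The median log2 fold change in labelled knockdown against control was -0.0766 without TMM, -0.1849 with DESeq2 size factors, -0.1845 in DESeq2, -0.265 in limma voom, -0.3197 with no filter, -0.196 with a minimum mean of 5 CPM, -0.1548 with the GC and length offset, -0.2807 with counts divided by the spread, and -0.284 and -0.2858 with members summed with copies named -ps and with all copies. The medians of all genes in the same order were 0.0618, -0.0355, -0.0361, -0.2488, -0.058, -0.0208, -0.1007, -0.0821, -0.0852 and -0.0853. In limma voom the members thus lay near all genes. In labelled Ccnb1 against labelled knockdown the median of the members was -0.4974 without TMM, -0.4513 with DESeq2 size factors, -0.4501 in DESeq2, -0.3466 with no filter, -0.5171 with the CPM minimum and -0.3881 with the offset. That of all genes was 0.0566, 0.1008, 0.1008, 0.4211, 0.0378 and 0.1024 in the same order. In labelled Ccnb1 against control the median of the members was -0.7444 without TMM, -0.7847 with no filter, -0.8737 with only the 2 groups compared and -0.5407 with the offset. That of all genes was 0.1459, 0.1778, 0.0185 and 0.0486 in the same order.

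With only the 2 groups compared, 1 member was called higher and 7 lower in labelled knockdown against control, 2 and 18 in labelled Ccnb1 against labelled knockdown, and 2 and 63 in labelled Ccnb1 against control. In labelled Ccnb1 against control, limma voom and counts divided by the spread each called 2 higher and 60 lower. Of all genes, these 2 settings called 31.7% and 35.3% higher and 27.9% and 31.1% lower. The offset called 1 higher and 21 lower, where 4.96% and 7.46% of all genes were. No TMM, DESeq2, no filter and the CPM minimum called 1 higher each, where 10.6%, 16.3%, 6.23% and 12.3% of all genes were. In labelled Ccnb1 against labelled knockdown, limma voom called 3 and counts divided by the spread 4 higher, where 14.7% and 22.4% of all genes were.

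The log2 ratio of large to small subunit sums was 0.058 in labelled knockdown against control and 0.1167 with subunits as in structures. With the median of log2 CPM it was 0.1472, and it was reversed to 0.0165 in labelled Ccnb1 against labelled knockdown and to 0.1638 in labelled Ccnb1 against control. In that last comparison it was -0.1529 per transcript length, -0.095 with subunits as in structures, -0.1228 with copies named -ps and -0.1617 with all copies.

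With the replicate number as a block, 2 members were called higher and 15 lower in labelled knockdown against control (median -0.2627), 4 and 25 in labelled Ccnb1 against labelled knockdown (-0.4182) and 0 and 26 in labelled Ccnb1 against control (-0.8131). Deviations of same-numbered libraries correlated at -0.028 to 0.008 over 11713 genes. With 2 libraries a group, these correlations cannot show whether same-numbered libraries shared a batch.

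Leaving out 1 library gave 0 to 14 higher and 1 to 36 lower in labelled knockdown against control (median -0.374 to -0.1831), 2 to 16 higher and 8 to 41 lower in labelled Ccnb1 against labelled knockdown (-0.5264 to -0.3568), and 0 to 2 higher and 1 to 60 lower in labelled Ccnb1 against control (-0.8286 to -0.7409). The lone library of a group was then assumed to vary like the others. The share of all genes called lower, given above with each comparison, also changed with the library left out. These ranges of calls thus do not describe the members alone. The ratio gave 0.0108 to 0.1052, -0.2436 to -0.1492 and -0.1444 to -0.1324 in the same order.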
